A study of Mus musculus with 145 samples.

Results

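Very long genes are those whose transcribed unit runs over 100 kb or more, almost all of it intron. A set of 45 such genes was followed in dorsal skin of mice after a single exposure to ultraviolet light. The 45 genes had been listed by name, and those with a mean CPM (counts of a gene scaled to the size of its library) of at least 1 over the libraries were kept. Of the 45, 44 were in the deposited table, 43 were kept, and all 43 were among the 18677 genes tested. Ptprg was not analysed here, and Erbb4, an epidermal growth factor receptor family kinase, was left out at 0.332 CPM. The kept genes nearest to the limit were Fhit at 1.28 CPM and Immp2l at 1.32 CPM, and the highest was Nfib at 272.9 CPM.

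The exposed skin received 5, 10, 20 or 40 mJ/cm2 from a tanning canopy of 8 fluorescent lamps of 100 W (96.4% ultraviolet A and 3.6% ultraviolet B), and sham animals were handled without light. Skin was taken 0, 6, 24, 48, 72 or 96 h later, so that the design has 30 groups of 5 animals each, 150 in all. The table holds 145 libraries: 25 groups have 5, and the 20 mJ/cm2 group at 48 h and the irradiated groups at 96 h have 4 each. Each library is polyA-selected RNA of whole skin from its own animal. The labels used here do not state the genotype, strain, sex or age of the animals, and no transgene or other agent is named. Whole skin mixes epidermis, dermis, fat and muscle, so that a loss of cells of a type and less RNA per cell cannot be told apart for any gene below.

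RNA polymerase II must travel the whole span of a gene, introns included, to make 1 transcript. Ultraviolet light joins neighbouring pyrimidines in DNA, and such lesions in the transcribed strand stall the polymerase. Transcription-coupled repair, which starts from the stalled polymerase, clears them. As background, the chance that a polymerase meets a lesion grows with the distance it has to travel, and the last part of a long gene is also the last to be transcribed again after repair. Several of the listed genes (Fhit, Wwox, Immp2l, Dmd) lie in human at or near common fragile sites, regions that break under replication stress.

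In the gene records matched by Ensembl identifier, the 43 genes spanned 192 kb (Jarid2) to 2257 kb (Dmd), with a median of 560.1 kb. The median over the other 18572 genes tested with a record was 18.0 kb. The mature transcripts were less unusual: the exons together covered a median of 12.8 kb, against 3.72 kb in the other genes, over a median of 18 exons against 7. Introns made up a median of 98.0% of the span of the listed genes, and 78.4% in the other genes. Another 399 genes tested span over 300 kb, with a median span of 421 kb, so that the listed genes are a sample of the long genes of skin and not all of them.

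To show how a very long gene and a short relative start, the promoters of Sh3gl2 and Sh3gl1, both encoding endophilins (membrane-bending proteins of endocytosis), are printed from RefSeq on GRCm38.p6, from 250 bases before to 50 bases after the annotated start and 5′ to 3′ on the gene's strand, with each CG in capitals. Sh3gl2, at chr4:85205206-85205505 on the plus strand, holds 34 CG. Sh3gl1, at chr17:56036610-56036909 on the minus strand, holds 28 CG.
Sh3gl2: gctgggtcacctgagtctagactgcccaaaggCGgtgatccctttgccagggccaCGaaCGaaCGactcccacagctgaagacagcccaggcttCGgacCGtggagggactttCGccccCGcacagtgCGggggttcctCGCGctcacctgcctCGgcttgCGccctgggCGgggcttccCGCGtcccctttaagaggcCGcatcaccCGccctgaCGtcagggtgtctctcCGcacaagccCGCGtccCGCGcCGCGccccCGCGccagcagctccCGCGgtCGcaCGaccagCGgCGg
Sh3gl1: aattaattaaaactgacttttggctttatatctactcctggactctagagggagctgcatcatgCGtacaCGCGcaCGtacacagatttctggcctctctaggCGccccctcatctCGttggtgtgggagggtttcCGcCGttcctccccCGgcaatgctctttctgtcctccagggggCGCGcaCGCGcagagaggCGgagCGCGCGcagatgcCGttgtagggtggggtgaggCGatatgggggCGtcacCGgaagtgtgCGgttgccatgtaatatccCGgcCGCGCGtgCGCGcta
Both promoters are rich in CG, although the gene that follows spans 19.9 kb for Sh3gl1 and 434 kb for Sh3gl2. Of the 43 listed genes, 36 had a promoter in the table, 62 promoters in all, with a median of 12.5 CG against 7 in all 32851 promoters of the same length. On either strand, GGGCGG (a GC box) was found in 28 of the 62, or 45.2%, against 35.7% of all promoters. TATAAA was in 7 of the 62 against 13.6% of all, and TGACTCA (an AP-1 motif) in 1 of the 62 against 5.20% of all. These are letter matches, no motif holds another, and no binding was measured.

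Library totals ran between 0.18 M and 64.59 M counts, with a median of 11.08 M, and 2 were under 1 M. One of these is replicate 5 of the 10 mJ/cm2 group at 6 h, with 0.18 M counts, where a single count is worth 5.44 CPM. Replicate 4 of the same group, with 4.357 M counts, also stood apart: the median of the 43 genes lay 0.02 log2 units below the sham mean there, against 0.58 to 0.90 units below in the other 4 libraries. The 0.90 belongs to replicate 5, where the median deviation of genes under 10 kb was -1.62. Libraries carry either of 2 endings in their titles (R1_001 in 71, R1 in 74), whose meaning the labels do not explain, and the ending was a term in every fit. Differences below are log2 fold changes with their standard error from edgeR's quasi-likelihood fit over all genes of a time, and a gene was called at a Benjamini-Hochberg adjusted p under 0.05 over all genes tested.

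The question put to the 43 genes was whether ultraviolet light lowers their RNA, at which dose and for how long. At 6 h they were lower than in sham skin at every dose, with a median log2 fold change of -0.51 at 5 mJ/cm2, -0.48 at 10 mJ/cm2, -0.89 at 20 mJ/cm2 and -1.17 at 40 mJ/cm2. The median of all genes stayed between -0.00 and 0.02. Of the 43, 40, 38, 41 and 42 lay below 0 in that order of doses, and Prkg1, a kinase activated by cyclic GMP, was the 1 gene above 0 at 40 mJ/cm2 (0.09 ± 0.42). Calls lower numbered 0 at 5 and 10 mJ/cm2, where 0% of all genes were called lower, 12 of 43 at 20 mJ/cm2, where 0.252% of all genes were, and 26 of 43 at 40 mJ/cm2, where 2.92% were. None was called higher, where 0%, 0%, 0.161% and 2.1% of all genes were. For 8, 9, 22 and 27 of the 43 genes, in the same order of doses, every irradiated library was below every sham library, against 0.284%, 2.12%, 1.77% and 4.45% of all genes. The comparison of 40 mJ/cm2 with sham at 6, 24 and 72 h had named many of these genes, and the other doses at those times share its sham animals. The values at those times are therefore a description, carry no test, and nothing is read from their counts. Within the libraries of 1 title ending, the median of the 43 genes at 40 mJ/cm2 was -1.09 among R1_001 libraries (22 of 43 called lower) and -1.31 among R1 libraries (0 called, as over all genes).

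**Figure D1:**
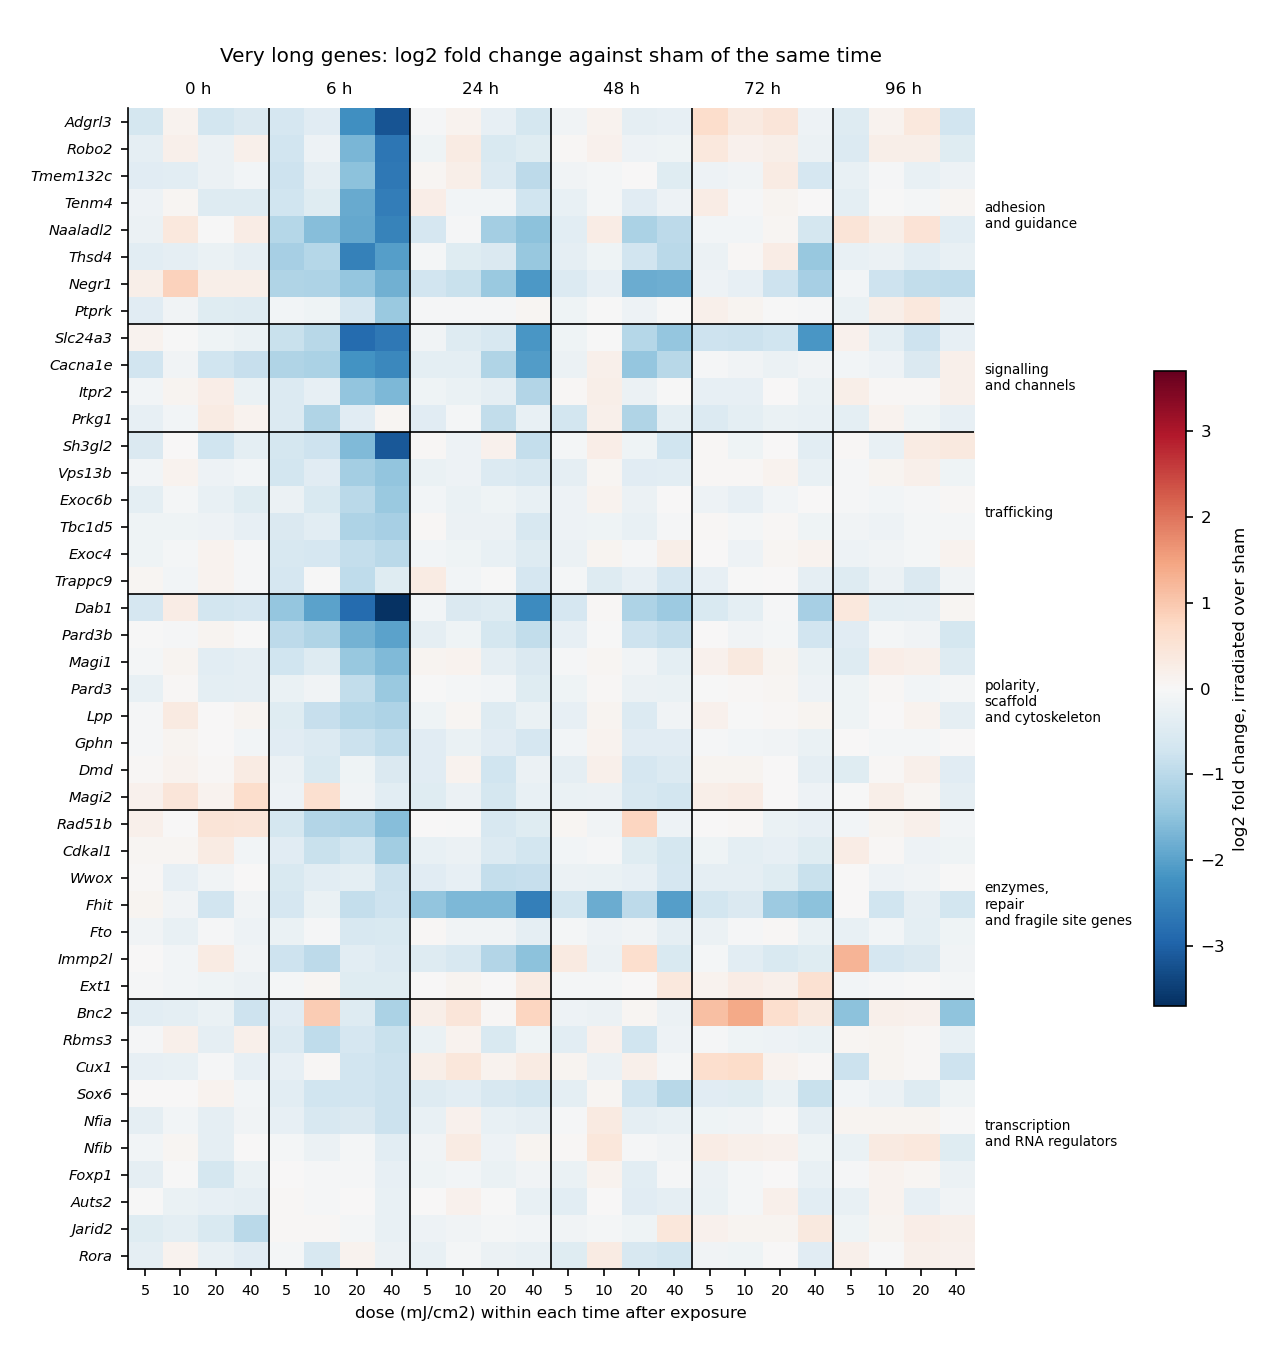
Log2 fold change of each of the 43 listed genes (lines, grouped by role) against sham of the same time, for each dose and time (columns; colour scale in log2 units). The adhesion and guidance genes had a median of -2.51 at 40 mJ/cm2 and 6 h, against -0.59 in the transcription and RNA regulators. That contrast had named many of the genes, so the role groups are described and not tested. At 40 mJ/cm2 and 96 h the median of all 43 was -0.17.

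The 8 adhesion and guidance genes were the lowest at 40 mJ/cm2 and 6 h, with a median of -2.51, and all 8 were called lower. They ran between -3.19 ± 0.51 for Adgrl3, a latrophilin receptor that binds teneurins, and -1.36 ± 0.26 for Ptprk, a receptor tyrosine phosphatase of cell contacts. Robo2, a receptor for the guidance ligand Slit, stood at -2.67 ± 0.49, and Tenm4, a teneurin, at -2.54 ± 0.38. Tmem132c, a transmembrane protein, was at -2.64 ± 0.43 and Naaladl2, a peptidase-like membrane protein, at -2.47 ± 0.48. Thsd4 was at -2.04 ± 0.40 and Negr1 at -1.78 ± 0.41. Of the 4 signalling and channel genes (median -2.03), 3 were called lower, among them Slc24a3, a sodium-calcium-potassium exchanger, at -2.65 ± 0.53, and Cacna1e, a voltage-gated calcium channel subunit, at -2.40 ± 0.51. The third was Itpr2, a calcium release channel of the endoplasmic reticulum, at -1.65 ± 0.33.

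The 6 trafficking genes had a median of -1.29 with 5 called lower, between -3.12 ± 0.31 for Sh3gl2 and -0.45 ± 0.42 for Trappc9, a subunit of a vesicle tethering complex. Between these lay Vps13b (-1.47 ± 0.28), the exocyst subunits Exoc6b (-1.36 ± 0.26) and Exoc4 (-0.99 ± 0.23), and Tbc1d5 (-1.22 ± 0.24), a regulator of Rab7. The 8 polarity, scaffold and cytoskeleton genes had a median of -1.26 with 6 called lower. Dab1, an adaptor of reelin receptors, was the lowest of all 43 at -3.65 ± 0.75, and Magi2, a junction scaffold, the highest of its group at -0.38 ± 0.48. The polarity scaffolds Pard3b and Pard3 were at -1.98 ± 0.25 and -1.38 ± 0.22, and Magi1, a scaffold of junctions, at -1.64 ± 0.29. Lpp was at -1.15 ± 0.20, Gphn, gephyrin, at -0.93 ± 0.16, and Dmd, dystrophin, at -0.55 ± 0.24 without a call. The 7 enzyme, repair and fragile site genes (median -0.77, 3 called lower) ran between -1.57 ± 0.41 for Rad51b, a gene of homologous recombination, and -0.44 ± 0.16 for Ext1, a polymerase of heparan sulfate. Cdkal1 (-1.28 ± 0.22) and Wwox (-0.78 ± 0.22) were the other calls, while Fhit (-0.77 ± 0.31), the RNA demethylase Fto (-0.57 ± 0.23) and Immp2l (-0.51 ± 0.39), a mitochondrial peptidase, had none.

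The 10 transcription and RNA regulators had the median nearest to 0, at -0.59, and 1, Sox6 (-0.79 ± 0.19), was called lower. They lay between -1.17 ± 0.51 for Bnc2, a zinc finger protein, and -0.23 ± 0.30 for Rora, a nuclear receptor. Rbms3, an RNA-binding protein (-0.83 ± 0.33), and the transcription factors Cux1 (-0.80 ± 0.27) and Nfia (-0.79 ± 0.26) were at the lower end, and Nfib (-0.39 ± 0.21) and Auts2 (-0.28 ± 0.21) at the upper. Foxp1, a forkhead factor, stood at -0.31 ± 0.19 and Jarid2, a partner of Polycomb repressive complex 2, at -0.27 ± 0.14. Span did not order the 43 genes among themselves at this dose and time (Spearman's rho 0.05 across the 43 genes), while their mean level did so weakly (rho 0.43, genes of lower mean CPM being the more lowered). Mean level also differed between the role groups, and its part in their order was not tested. Genes are not independent replicates, and all these values share the same libraries.

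A comparison that leaves out every sham and every 40 mJ/cm2 animal asks whether the dose itself matters within the irradiated skin. The slope of log2 expression per doubling of dose over 5, 10 and 20 mJ/cm2 at 6 h was below 0 in 36 of the 43 genes, with a median of -0.20 against -0.00 over all genes. No gene of the 18677, listed or not, was called by edgeR (0% of all genes), and at an unadjusted p under 0.05 there were 12 of the 43 genes, all lower, where 1.15% of all genes were lower at that p. DESeq2 called 1 listed gene, Slc24a3, and 8 genes in all. In simulated data of this size, 100 genes were made to change by 1 log2 unit per doubling and 100 by 2, and the fit recovered 85% of the former. So many planted changes make the adjusted threshold easier to pass than in the data, which gave 0 calls. The 85% therefore does not say how often a slope of that size would be called here. Smaller slopes were not simulated. Within 1 title ending the median slope of the 43 genes was -0.30 among R1_001 libraries and -0.10 among R1 libraries. The difference of 20 from 5 mJ/cm2 was below 0 in the same number, 36 of 43, with a median of -0.40. It gave 0 calls by edgeR over all genes, and 15 of the 43 genes were lower at an unadjusted p under 0.05 against 1.57% of all genes; DESeq2 called 1 listed gene and 14 genes in all.

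Slc24a3 had the steepest slope. In sham skin at 6 h its libraries held 30.3, 21.7, 36.0, 19.0 and 28.6 CPM, and with 5 mJ/cm2 17.4, 25.0, 15.6, 8.66 and 12.6 CPM. With 10 mJ/cm2 they held 9.45, 13.6, 8.27, 23.8 and 5.44 CPM, with 20 mJ/cm2 2.76, 5.19, 1.86, 3.30 and 5.00 CPM, and with 40 mJ/cm2 14.6, 2.66, 4.93, 0.611 and 1.44 CPM. Every library at 20 mJ/cm2 was below every library at 5 mJ/cm2 and every sham library, while the 5 and 10 mJ/cm2 libraries overlapped with sham. The slope was -1.05 ± 0.23 per doubling (edgeR adjusted p = 0.540), and 20 mJ/cm2 stood at -2.13 ± 0.39 against 5 mJ/cm2 (adjusted p = 0.245). The call by DESeq2 had an adjusted p of 0.0102.

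Sh3gl2, the endophilin whose promoter is printed above, held 7.77, 8.34, 10.5, 10.4 and 10.4 CPM in sham skin, 4.32, 6.45, 7.32, 6.23 and 5.40 CPM with 5 mJ/cm2 and 4.72, 6.20, 3.75, 7.57 and 5.44 CPM with 10 mJ/cm2. At 20 mJ/cm2 the values were 2.10, 4.67, 2.47, 1.94 and 3.92 CPM and at 40 mJ/cm2 1.87, 0.780, 0.673, 1.53 and 0.767 CPM. All 20 irradiated libraries were below all 5 sham libraries, and the 5 at 40 mJ/cm2 were below every other library. The slope over 5, 10 and 20 mJ/cm2 was -0.48 ± 0.16 (adjusted p = 1), and the level at 40 mJ/cm2 was 11.5% of sham.

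Tenm4 libraries held 42.6, 54.9, 43.0, 29.8 and 43.5 CPM in sham skin, 26.2, 29.9, 23.8, 25.3 and 22.4 CPM with 5 mJ/cm2 and 21.3, 19.4, 13.8, 72.6 and 27.2 CPM with 10 mJ/cm2. They held 9.33, 14.9, 13.7, 9.11 and 11.9 CPM with 20 mJ/cm2 and 14.3, 5.87, 8.63, 3.46 and 5.08 CPM with 40 mJ/cm2. Replicate 4 at 10 mJ/cm2, at 72.6 CPM, was above every other library of that time, and the 20 and 40 mJ/cm2 libraries were below every sham and every 5 mJ/cm2 library. Its slope was -0.55 ± 0.21. The partner receptor Adgrl3 held 4.02, 7.64, 4.84, 6.53 and 5.62 CPM in sham skin, 4.18, 4.46, 3.71, 4.42 and 1.56 CPM with 5 mJ/cm2 and 3.17, 1.69, 3.62, 10.2 and 0 CPM with 10 mJ/cm2, the 0 being the library of 0.18 M counts. With 20 mJ/cm2 it held 0.263, 1.94, 0.824, 1.37 and 1.42 CPM and with 40 mJ/cm2 1.36, 0.413, 0.561, 0.306 and 0.671 CPM. The 10 libraries of the higher doses were below all sham libraries, and the slope was -0.81 ± 0.31.

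**Figure D2:**
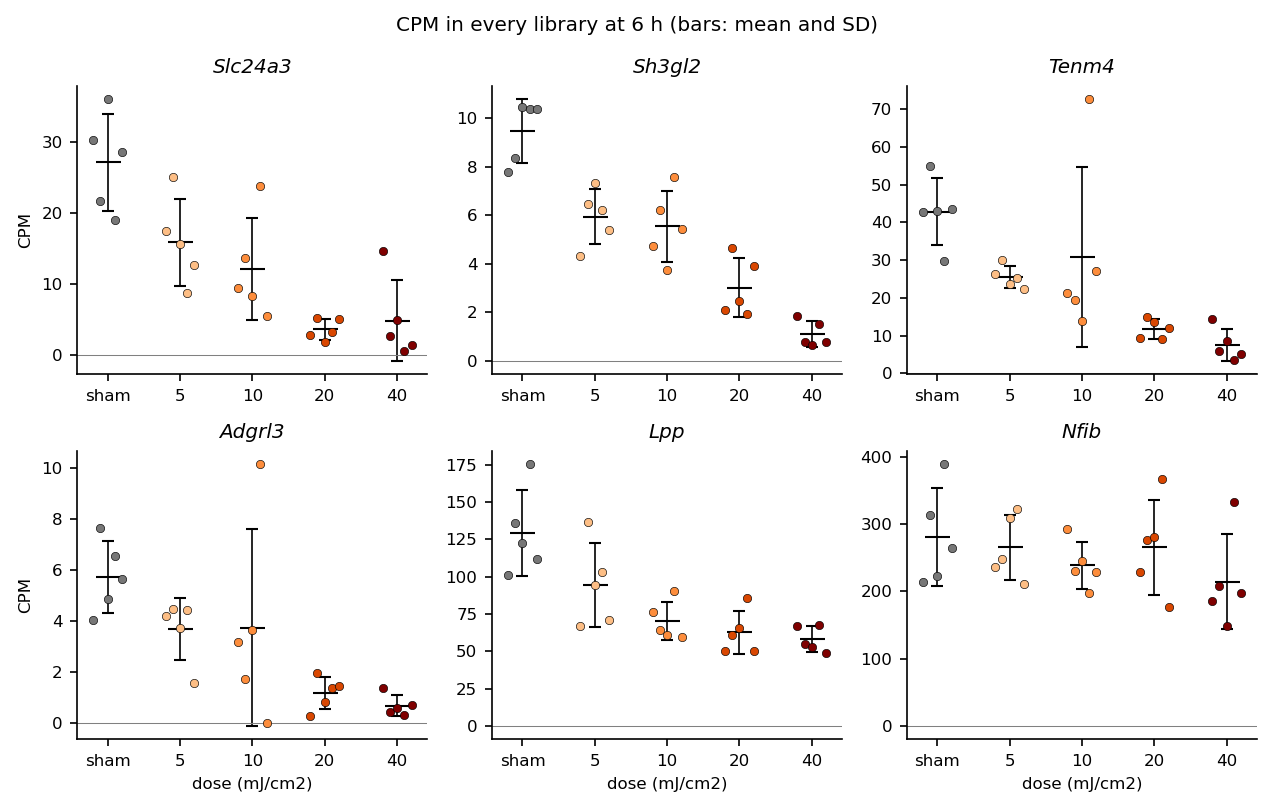
CPM in each library at 6 h (points) with the mean and SD of each group (bars), sham and then 5 to 40 mJ/cm2, for 6 listed genes. Slc24a3, Sh3gl2, Tenm4 and Adgrl3 at 20 and 40 mJ/cm2 lay below every sham library, Lpp followed with a smaller difference, and Nfib libraries overlapped between all groups.

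Lpp, a zyxin family protein of focal adhesions, showed a smaller difference in the same order. Sham libraries held 101, 136, 123, 176 and 112 CPM, 5 mJ/cm2 libraries 67.2, 136, 94.7, 103 and 71.3 CPM and 10 mJ/cm2 libraries 76.2, 64.4, 61.1, 90.4 and 59.9 CPM. The values were 50.6, 61.0, 65.3, 86.0 and 50.5 CPM at 20 mJ/cm2 and 67.2, 55.2, 52.7, 67.6 and 48.9 CPM at 40 mJ/cm2. The 15 libraries at 10 mJ/cm2 and above were below all sham libraries, with a slope of -0.30 ± 0.11. Exoc6b, a subunit of the exocyst that tethers vesicles to the plasma membrane, held 47.4, 52.7, 56.1, 69.1 and 55.1 CPM in sham skin, 34.8, 64.6, 50.5, 44.7 and 46.0 CPM with 5 mJ/cm2 and 33.1, 37.0, 23.9, 69.8 and 5.44 CPM with 10 mJ/cm2. It held 27.2, 31.0, 22.5, 30.5 and 29.7 CPM with 20 mJ/cm2 and 26.7, 20.5, 21.4, 21.6 and 18.5 CPM with 40 mJ/cm2. These last 10 libraries lay below all sham and all 5 mJ/cm2 libraries, and the slope was -0.39 ± 0.15.

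Thsd4, a protein of fibrillin microfibrils, held 8.58, 7.36, 5.89, 11.8 and 9.08 CPM in sham skin, 3.35, 5.20, 3.96, 3.20 and 2.59 CPM with 5 mJ/cm2 and 2.14, 3.61, 2.58, 9.30 and 0 CPM with 10 mJ/cm2. At 20 mJ/cm2 its libraries held 1.84, 1.85, 1.24, 1.14 and 1.42 CPM and at 40 mJ/cm2 4.59, 1.65, 1.79, 1.32 and 1.34 CPM. Apart from replicate 4 at 10 mJ/cm2, every irradiated library was below every sham library, and the slope was -0.63 ± 0.24. Pard3b, a scaffold of cell polarity, held 32.0, 27.0, 33.5, 35.8 and 31.9 CPM in sham skin, 15.3, 23.7, 17.2, 14.5 and 10.4 CPM with 5 mJ/cm2 and 13.1, 11.6, 12.1, 24.9 and 5.44 CPM with 10 mJ/cm2. It held 9.98, 8.72, 8.97, 12.4 and 7.59 CPM with 20 mJ/cm2 and 8.34, 6.84, 9.75, 9.98 and 5.85 CPM with 40 mJ/cm2. All 20 irradiated libraries were below all sham libraries, and the slope was -0.39 ± 0.15. For these 7 genes other than Slc24a3 the adjusted p of the slope was 1.

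The 3 genes with the weakest evidence of a slope were Magi2, Nfib and Bnc2. Magi2 held 3.89, 4.72, 4.71, 4.68 and 4.54 CPM in sham skin, 3.62, 4.68, 5.31, 3.80 and 2.28 CPM with 5 mJ/cm2 and 3.62, 4.40, 6.33, 1.95 and 59.9 CPM with 10 mJ/cm2. Its libraries held 4.33, 4.93, 4.53, 4.10 and 2.67 CPM at 20 mJ/cm2 and 2.55, 3.81, 2.80, 4.58 and 3.45 CPM at 40 mJ/cm2. The groups overlapped, and the 59.9 CPM is 11 counts in the library of 0.18 M counts (slope 0.04 ± 0.32). Nfib, a nuclear factor I transcription factor of hair follicle stem cells, held 213, 314, 223, 389 and 265 CPM in sham skin, 236, 248, 308, 322 and 210.4 CPM with 5 mJ/cm2 and 292, 229.6, 245, 197 and 229 CPM with 10 mJ/cm2. With 20 mJ/cm2 it held 229, 275, 280.0, 367 and 176 CPM and with 40 mJ/cm2 186, 208, 148, 333 and 197 CPM. All 5 groups overlapped (slope 0.00 ± 0.10).

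Bnc2 held 2.41, 13.9, 4.45, 5.23 and 6.53 CPM in sham skin, 6.13, 3.91, 3.91, 6.47 and 4.46 CPM with 5 mJ/cm2 and 8.05, 5.30, 4.14, 17.9 and 76.2 CPM with 10 mJ/cm2, where the highest is again the library of 0.18 M counts. It held 3.81, 4.23, 7.11, 4.44 and 3.25 CPM with 20 mJ/cm2 and 3.57, 2.29, 1.68, 4.07 and 3.55 CPM with 40 mJ/cm2. The groups overlapped (slope -0.00 ± 0.38).

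Right after exposure, at 0 h, no listed gene was called at any dose, nor was any other gene (0% of all genes in each direction). The medians of the 43 genes were -0.13, -0.01, -0.20 and -0.14 at 5, 10, 20 and 40 mJ/cm2. At an unadjusted p under 0.05, edgeR gave 2, 0, 4 and 6 of the 43, beside 628, 350, 1038 and 831 of all genes. The lowest was Jarid2 at 40 mJ/cm2. Its 40 mJ/cm2 libraries held 32.5, 25.8, 35.6, 24.3 and 30.6 CPM and its sham libraries 50.1, 57.8, 90.5, 48.1 and 53.5 CPM, without overlap, which gave -1.01 ± 0.20 (edgeR adjusted p = 0.147, over all genes). At 6 h the same contrast for Jarid2 was -0.27.

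At 24 h the medians of the 43 genes were -0.15, -0.11, -0.42 and -0.54 at 5, 10, 20 and 40 mJ/cm2, given as a description for the reason stated. The calls lower numbered 0, 0, 1 and 14, where 0%, 0%, 0.0107% and 1.3% of all genes were called lower, and none was called higher, where 0%, 0%, 0.0696% and 1.62% of all genes were. The 1 at 20 mJ/cm2 was Wwox, an oxidoreductase of a common fragile site. For 2, 2, 4 and 14 of the 43 genes every irradiated library was below every sham library, against 0.551%, 0.487%, 1.07% and 2.25% of all genes. Replicate 5 of the 40 mJ/cm2 group at 24 h stood apart, with a median of the 43 genes 1.28 log2 units below sham against 0.26 to 0.56 in the other 4, and without it the median fold was -0.37. Fhit, a dinucleoside polyphosphate hydrolase, had its largest difference from sham skin here. Its 40 mJ/cm2 libraries held 0.442, 0.265, 0.349, 0.467 and 0.275 CPM, against 1.30, 2.96, 2.24, 1.61 and 1.98 CPM in sham skin, 17.2% of sham by the fit. Fhit has the lowest mean level of the 43 genes, 1.28 CPM, so that most of these values rest on few counts. Slc24a3 held 4.64, 13.8, 5.82, 6.66 and 6.43 CPM at 40 mJ/cm2, against 32.1, 33.9, 32.7, 36.1 and 31.5 CPM in sham skin, or 22.4%. Neither gene had overlapping groups.

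At 48 h, where each dose could be tested, 11 of the 43 genes fell with 40 mJ/cm2 and none rose, while 3.61% of all genes were called lower and 4% higher. The median over the 43 genes was -0.35 against -0.00 over all genes, and 39 of the 43 lay below 0. All 40 mJ/cm2 libraries were below all sham libraries for 12 of the 43 genes, against 6.11% of all genes. The 11 were Fhit, Negr1, Slc24a3, Dab1, Cacna1e, Sox6, Thsd4, Pard3b, Sh3gl2, Cdkal1 and Wwox. Every role group held at least 1 of them: 3 of the 7 enzyme, repair and fragile site genes, 2 each of the adhesion, polarity and channel genes, and 1 each of the trafficking genes and the transcription regulators. At 20 mJ/cm2, 1 of the 43 genes was called lower, against 0.0535% of all genes, and none higher, against 0.471%. That call and the 98 calls among all genes changed with single libraries: 0 listed genes and 9 in all were called without the 2 libraries of that time whose titles mark them as repeats with an RNA amount of their own (replicate 3 at 5 mJ/cm2 and replicate 2 at 20 mJ/cm2). At 5 and 10 mJ/cm2 0 were called, as were 0% of all genes. Libraries at 5, 10 and 20 mJ/cm2 were all below sham for 0, 1 and 8 of the 43 genes, against 0.707%, 0.198% and 2.13% of all genes. The medians over the 43 genes were -0.19 at 5 mJ/cm2, 0.04 at 10 mJ/cm2 and -0.32 at 20 mJ/cm2.

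Fhit, the listed gene of lowest mean level (1.28 CPM), had the largest difference at 48 h, on few counts per library. Its 40 mJ/cm2 libraries held 0.636, 0.257, 0.663, 0.610 and 0.537 CPM, against 1.85, 1.72, 2.27, 2.62 and 2.47 CPM in sham skin, without overlap, a log2 fold change of -2.04 ± 0.39 (edgeR adjusted p = 0.00205). Negr1, a neural cell adhesion molecule anchored by a lipid, held 2.23, 1.41, 0.414, 2.91 and 0.805 CPM with 40 mJ/cm2 and 5.82, 4.76, 5.03, 5.17 and 6.04 CPM in sham skin, again without overlap (-1.80 ± 0.37, adjusted p = 0.00344). Negr1 was also the 1 gene that fell with 20 mJ/cm2, where its 4 libraries held 2.48, 1.90, 0.689 and 1.08 CPM, all below sham (-1.85 ± 0.40, adjusted p = 0.0340). It kept that call in 3 of the 9 fits that left out 1 library, losing it without replicate 1, 3, 4 or 5 of sham or replicate 2 or 4 at 20 mJ/cm2. Slc24a3 held 14.1, 9.39, 3.48, 14.8 and 3.67 CPM with 40 mJ/cm2, against 28.6, 23.2, 19.3, 23.2 and 26.4 CPM in sham skin, also without overlap (-1.44 ± 0.32, adjusted p = 0.00654).

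Sox6, a transcription factor of the SoxD family, held 43.4, 29.2, 27.1, 34.2 and 22.6 CPM with 40 mJ/cm2, against 61.9, 59.8, 57.2, 60.1 and 77.1 CPM in sham skin (-1.03 ± 0.23, adjusted p = 0.00644). Pard3b held 15.3, 19.4, 10.6, 17.8 and 14.7 CPM with 40 mJ/cm2, against 25.4, 32.0, 30.5, 28.6 and 26.4 CPM in sham skin (-0.88 ± 0.20, adjusted p = 0.00778). Neither gene overlapped between the groups. Wwox held 6.68, 6.11, 6.63, 5.96 and 5.19 CPM with 40 mJ/cm2, against 10.6, 9.76, 8.50, 9.93 and 8.02 CPM in sham skin (-0.61 ± 0.15, adjusted p = 0.0139). Cdkal1, which modifies a transfer RNA for lysine, held 11.4, 10.2, 9.44, 8.40 and 7.25 CPM with 40 mJ/cm2, against 15.3, 13.8, 13.7, 12.6 and 17.9 CPM in sham skin (-0.65 ± 0.17, adjusted p = 0.0187). These 2 had smaller folds, and their groups did not overlap either.

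The other 4 calls were closer to the threshold. Thsd4 held 6.20, 4.31, 1.74, 4.27 and 4.56 CPM with 40 mJ/cm2 and 11.4, 7.32, 8.15, 6.78 and 8.26 CPM in sham skin (-1.01 ± 0.29, adjusted p = 0.0344), and Cacna1e held 3.66, 3.86, 2.48, 4.27 and 1.61 CPM with 40 mJ/cm2 and 5.03, 5.96, 7.86, 6.07 and 7.40 CPM in sham skin (-1.03 ± 0.31, adjusted p = 0.0420), both without overlap. Sh3gl2 held 7.63, 5.72, 3.81, 4.20 and 2.95 CPM with 40 mJ/cm2 and 6.35, 6.52, 8.00, 8.74 and 8.63 CPM in sham skin (-0.73 ± 0.21, adjusted p = 0.0360). Dab1 held 7.95, 3.28, 0.911, 3.93 and 1.43 CPM with 40 mJ/cm2 and 8.47, 6.28, 5.03, 8.62 and 11.1 CPM in sham skin (-1.35 ± 0.40, adjusted p = 0.0375). In these last 2 genes, replicate 1 at 40 mJ/cm2 lay within the sham range.

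Leaving out 1 library at a time gave 6 to 12 of the 43 genes called at 48 h. The count was 6 without replicate 5 of sham, and 7 without replicate 4 of sham or without replicate 2, 3 or 5 of the 40 mJ/cm2 group. Of 10 such fits, Sh3gl2 and Cacna1e lost their call in 7, Dab1 and Thsd4 in 6 and Cdkal1 in 3, and the other 6 genes kept it in all. In the fit with 12 calls, without replicate 2 of sham, 11 were lower and 1, Ext1, was higher (0.55, adjusted p = 0.0183, against 0.39 and 0.122 with all libraries). Within the libraries of 1 title ending, 0 of the 43 were called among the R1_001 libraries (2 against 2) and 4 among the R1 libraries (3 against 3), where all genes gave 18 and 657 calls. Sh3gl2 stood at 0.04 in the R1_001 libraries.

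Markers of other cell types moved at 40 mJ/cm2 and 48 h, and their part in these results was not tested beyond the fits given here. Of 10 skeletal muscle genes 6 were called lower (summed level 16874 to 29101 CPM in 40 mJ/cm2 libraries and 37183 to 58323 CPM in sham), and of 6 fibroblast genes 2 (15802 to 30068 CPM in 40 mJ/cm2 libraries and 38150 to 45262 CPM in sham). All 4 neutrophil genes were called higher (24.7 to 270 CPM in 40 mJ/cm2 libraries and 2.38 to 16.9 CPM in sham). Of 5 T cell genes 3 were called lower (7.87 to 18.9 CPM in 40 mJ/cm2 libraries and 24.3 to 40.2 CPM in sham), of 3 Langerhans cell genes 1 lower, and of 4 macrophage genes 2 and of 5 basal keratinocyte genes 1 higher. In these lists 0 markers were at 0 in either group, and lists of fat, endothelium, melanocytes, nerve, smooth muscle, hair shaft and suprabasal keratinocytes had 0 calls. When the mean log2 CPM of the 10 muscle genes entered the fit, 16 of the 43 genes were called, all lower and 6 of them among the 11. Their median was then -0.75 with 36 below 0, and all genes gave 3894 calls in place of 1423. The summed muscle level did not overlap between 40 mJ/cm2 and sham, so that this term and the dose are hard to separate. The lower median and the added calls are therefore not read as a larger difference. The mitochondrial share of counts was 2.14% to 3.63% in 40 mJ/cm2 libraries and 3.15% to 5.87% in sham. With the log2 of that share in the fit, 7 of the 43 genes were called, all lower and 5 of them among the 11 (Fhit, Negr1, Slc24a3, Pard3b and Wwox), their median was -0.23 with 31 below 0, and all genes gave 1673 calls. The same term left 0 listed genes and 3 in all called at 20 mJ/cm2. At 6 h 0 of the 10 muscle genes were called at 40 mJ/cm2 (17586 to 62000 CPM, against 27037 to 51622 CPM in sham), and the mitochondrial shares overlapped, at 4.12% to 8.35% in 40 mJ/cm2 libraries and 4.44% to 13.5% in sham. The other marker lists are not given here at 6 h, so these values describe muscle and the mitochondrial share alone.

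At 72 h, given as a description, the medians of the 43 genes were -0.04, -0.07, 0.01 and -0.26 at 5, 10, 20 and 40 mJ/cm2. The 40 mJ/cm2 libraries stood apart from each other: the median deviation of the 43 genes from the sham mean was -0.55, -0.67 and -0.53 in replicates 1, 4 and 5 but 0.00 in replicate 2 and 0.26 in replicate 3, against -0.24 to 0.20 in sham. Replicate 3 had a mitochondrial share of 9.01%, against 1.61% to 3.86% in the other 4. With 40 mJ/cm2 4 of the 43, Fhit, Slc24a3, Thsd4 and Wwox, were called lower, where 0.214% of all genes were (0.948% were called higher), and 0 at the other doses, where 0% of all genes were. Slc24a3 held 6.12, 4.02, 11.9, 4.26 and 12.2 CPM at 40 mJ/cm2, against 32.4, 42.0, 24.9, 37.5 and 31.4 CPM in sham skin, without overlap. Fhit held 0.680, 0.268, 1.14, 0.362 and 0.881 CPM at 40 mJ/cm2, against 2.06, 1.66, 2.42, 1.54 and 2.12 CPM in sham skin, also without overlap. Its counts were few here too, and the 0.268 CPM comes from a library of 3.127 M counts.

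At 96 h, which could be tested, 0 of the 43 genes were called at any dose, where 0% of all genes were called lower and 0.118% higher at 40 mJ/cm2. The medians were -0.11, 0.00, -0.04 and -0.17 at 5, 10, 20 and 40 mJ/cm2, and 3, 0, 1 and 3 of the 43 had an unadjusted p under 0.05, beside 9.30%, 1.09%, 4.21% and 4.70% of all genes. DESeq2 also called 0 of the 43 at 40 mJ/cm2. Fhit held 1.50, 1.01, 0.653 and 1.31 CPM at 40 mJ/cm2, against 1.72, 0.947, 2.61, 1.72 and 1.77 CPM in sham skin, and Slc24a3 held 21.4, 17.4, 19.5 and 10.1 CPM, against 24.1, 23.2, 14.1, 26.9 and 16.5 CPM in sham skin. Both genes overlapped between the groups at this time.

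The genes are described over time after 40 mJ/cm2 by their log2 fold change at 6, 24, 48, 72 and 96 h, without a test between these times. Tenm4 stood at -2.54, -0.73, -0.17, 0.00 and 0.06, Adgrl3 at -3.19, -0.66, -0.31, -0.19 and -0.71, and Sh3gl2 at -3.12, -0.89, -0.73, -0.38 and 0.36. Their largest difference was at 6 h. Fhit stood at -0.77, -2.54, -2.04, -1.53 and -0.69, with its largest difference at 24 h, and Negr1 at -1.78, -2.14, -1.80, -1.22 and -0.93. Slc24a3 stood at -2.65, -2.16, -1.44, -2.15 and -0.30, and Wwox at -0.78, -0.86, -0.61, -0.82 and -0.02. Ext1, at -0.44, 0.30, 0.39, 0.56 and -0.08, and Bnc2, at -1.17, 0.81, -0.20, 0.37 and -1.49, lay on both sides of 0. The difference between times was tested on the slope over 5, 10 and 20 mJ/cm2, at 48 against 6 h: its median was 0.15 over the 43 genes, with 14 below 0, against 0.03 over all genes. No gene was called by edgeR (0% of all genes), with 2 of the 43 and 255 of all genes at an unadjusted p under 0.05. The slopes at 24, 48, 72 and 96 h had medians of -0.12, -0.07, -0.03 and 0.03 over the 43 genes, with 0 calls among all genes.

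Genes outside the list that were grouped by span alone showed a gradient at 6 h, given as a description of the same libraries. With 40 mJ/cm2 the median log2 fold change was 0.18 under 10 kb, 0.10 at 10 to 30 kb, -0.08 at 30 to 100 kb, -0.41 at 100 to 300 kb and -0.81 over 300 kb. The share called lower was 0.660%, 0.612%, 2.16%, 13.0% and 30.3% in that order, and the share called higher 3.01%, 2.74%, 0.969%, 0.116% and 0%. The 399 other genes over 300 kb had medians of -0.30, -0.39, -0.56 and -0.81 at 5, 10, 20 and 40 mJ/cm2. With 40 mJ/cm2 they stood at -0.03 at 0 h, -0.39 at 24 h, -0.33 at 48 h, -0.28 at 72 h and -0.16 at 96 h. The -0.03 does not show that span and fold were unrelated at 0 h. Across the 18572 other genes, Spearman's rho of the fold with span was -0.20 there, and -0.10 at 48 h. The listed genes, some of which had been named for being low, had a lower median at 40 mJ/cm2 and 6 h (-1.17) than the other genes over 300 kb (-0.81).

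**Figure D3:**
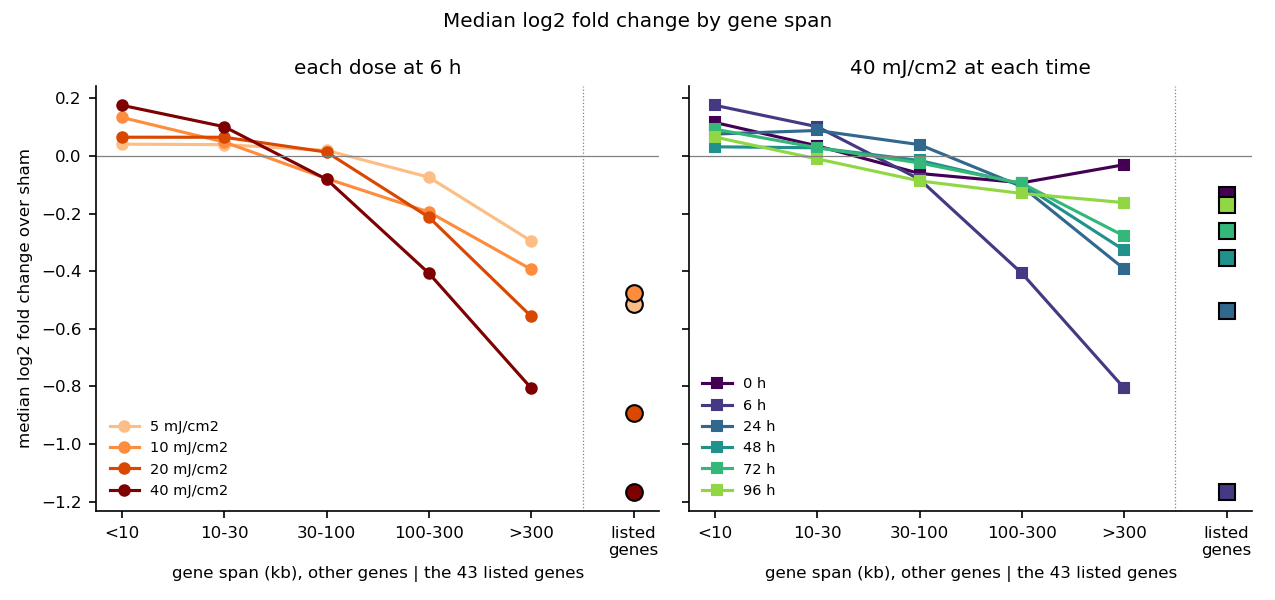
Median log2 fold change of genes outside the list by gene span (lines, 5 bins in kb) with the 43 listed genes beside them, at 6 h for each dose (left) and for 40 mJ/cm2 at each time (right). The median of genes over 300 kb at 6 h was -0.30 with 5 mJ/cm2 and -0.81 with 40 mJ/cm2. With 40 mJ/cm2 it was -0.03 at 0 h, where Spearman's rho of the fold with span was -0.20.

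The order by span was also there within terciles of exonic length and level. Among genes over 300 kb in the top tercile of exonic length, the median at 40 mJ/cm2 and 6 h was -0.84 (348 genes), and in the middle tercile it was -0.67 (48 genes); the lowest tercile held only 3. By level, the medians over 300 kb were -1.01, -0.89 and -0.55 for the lowest, middle and highest tercile of mean CPM. With spans from the longest transcript the median was -0.85, and with protein-coding genes alone -0.82. Across the 18572 other genes, Spearman's rho of the fold with span was -0.37, with exonic length -0.24 and with level 0.07.

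**Figure D4:**
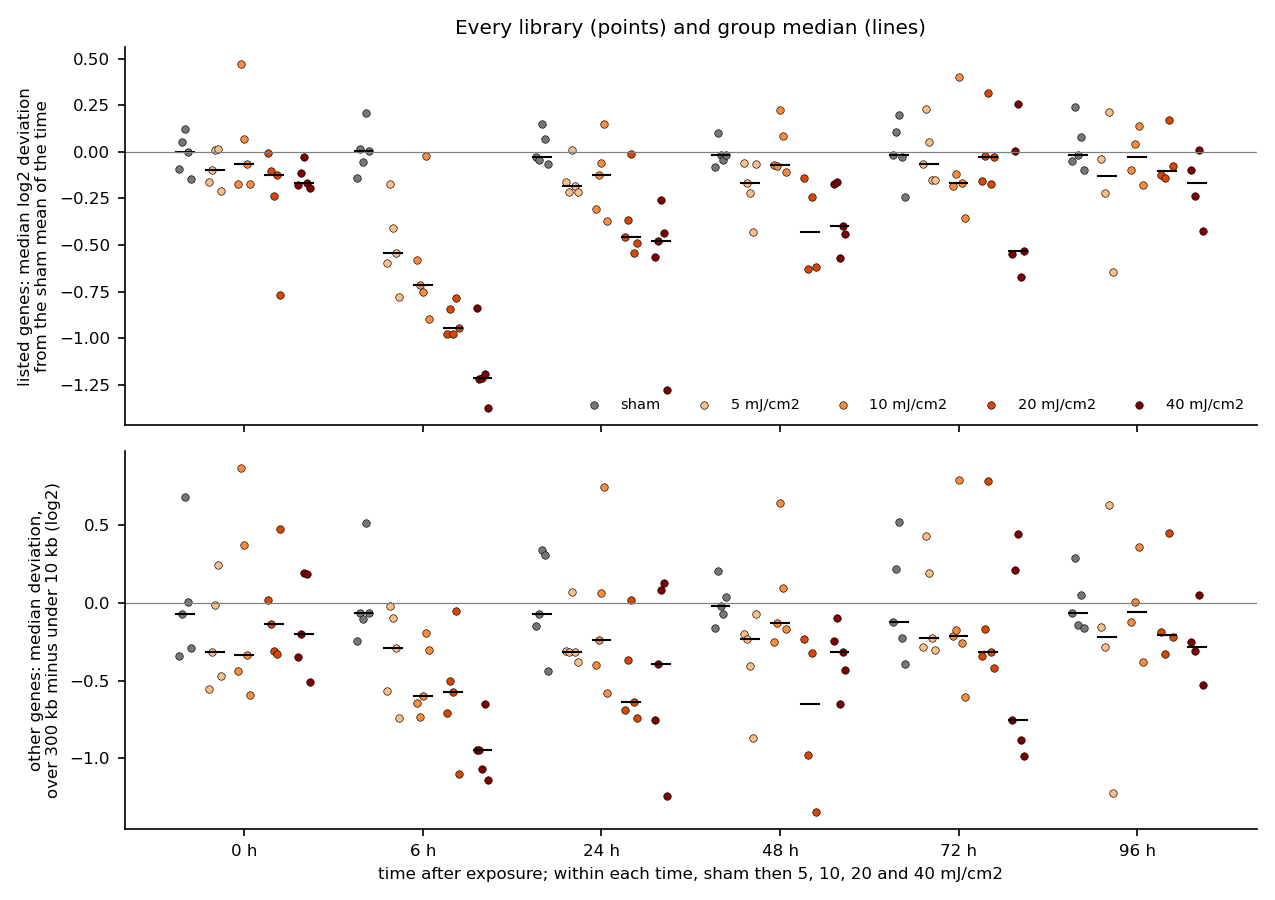
For each library (points) by time and dose, the median deviation of the 43 listed genes from the sham mean of that time (top) and the median deviation of other genes over 300 kb minus that of genes under 10 kb (bottom), both in log2 units. At 6 h the 40 mJ/cm2 libraries lay between -1.38 and -0.84 (top), below the sham libraries at -0.14 to 0.21, and sham libraries spread between -0.25 and 0.51 in the bottom panel.

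Taken library by library at 6 h, the median deviation of the 43 genes from the sham mean was -0.78 to -0.17 at 5 mJ/cm2, -0.90 to -0.02 at 10 mJ/cm2, -0.98 to -0.78 at 20 mJ/cm2 and -1.38 to -0.84 at 40 mJ/cm2. Sham libraries lay between -0.14 and 0.21, so that all 20 irradiated libraries but 1, replicate 4 at 10 mJ/cm2 at -0.02, were below all of them. The -0.90 is replicate 5 at 10 mJ/cm2, the library of 0.18 M counts. There genes under 10 kb lay at -1.62 and other genes over 300 kb at -1.93, so that its low value is not particular to long genes. The gap between other genes over 300 kb and genes under 10 kb varied among sham libraries as well, between -0.25 and 0.51 at 6 h, -0.44 and 0.34 at 24 h and -0.34 and 0.68 at 0 h. At 40 mJ/cm2 and 6 h it was -1.14 to -0.65. At 48 h it was -1.34 to -0.23 at 20 mJ/cm2 and -0.65 to -0.10 at 40 mJ/cm2, against -0.16 to 0.21 in sham.

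The mitochondrial share of counts moved with this gap between libraries of the same group. In 24 of the 30 groups the library with the highest share also had the highest gap, and in 21 the library with the lowest share had the lowest gap. For the median of the 43 genes these numbers were 21 and 17. By time these counts rest on 5 groups each, and the difference between times was not tested. At 24 h the highest share had the highest gap, and the lowest share the lowest gap, in 5 of 5 groups. At 48 h these held in 3 and 1 of 5 groups, and the lowest share had the lowest median of the 43 genes in 0. At 6 h they held in 3 and 4 of 5 groups, and for the median of the 43 genes in 2 and 3. At 40 mJ/cm2 and 24 h the shares of replicates 1 to 5 were 3.64%, 5.30%, 7.16%, 9.98% and 2.10%, and their gaps -0.75, -0.40, 0.09, 0.13 and -1.24. The sham library at 0 h with the gap of 0.68 had a share of 34.8%. With the log2 share in the fit, the median of the 43 genes at 40 mJ/cm2 was -1.13 at 6 h, with 42 below 0 and 29 called lower, and -0.52 at 24 h, with 37 below 0 and 23 called lower. Over all genes the calls then numbered 1941 at 6 h and 4625 at 24 h.

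Relatives of the listed genes, from the same families but of various lengths, were set beside them. Of 60 relatives, 59 were tested. With 40 mJ/cm2 at 6 h, 2.92% of all genes were called lower and 2.1% higher. Of the 36 relatives under 100 kb, 0 were called in either direction (median 0.01), which is close to those shares. Of the 23 at 100 kb or more, 7 were called lower (median -0.55). Sh3gl1, the short endophilin, stood at 0.26 ± 0.44, beside -3.12 for Sh3gl2, and Robo4, a short roundabout receptor of endothelium, at -0.03 ± 0.36, beside -2.67 for Robo2. Among the long relatives, Robo1 fell by 2.44 on the log2 scale (SE 0.44, edgeR adjusted p = 0.00181), Tenm3 stood at -1.38 ± 0.27 (adjusted p = 0.00297) and Utrn, the dystrophin relative utrophin, at -1.05 ± 0.19 (adjusted p = 0.00210). Sox5 (-1.57 ± 0.39), Lsamp (-1.45 ± 0.31), Ptprm (-0.76 ± 0.22) and Vps13c (-0.69 ± 0.19) were the other 4. At 48 h with 40 mJ/cm2, where 3.61% of all genes were called lower and 4% higher, 0 of the 59 relatives were called higher. Lsamp (-1.50 ± 0.33, edgeR adjusted p = 0.00572) and Exoc6 (-0.58 ± 0.15, adjusted p = 0.0172) were the 2 called lower among the 23 long relatives.

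**Figure D5:**
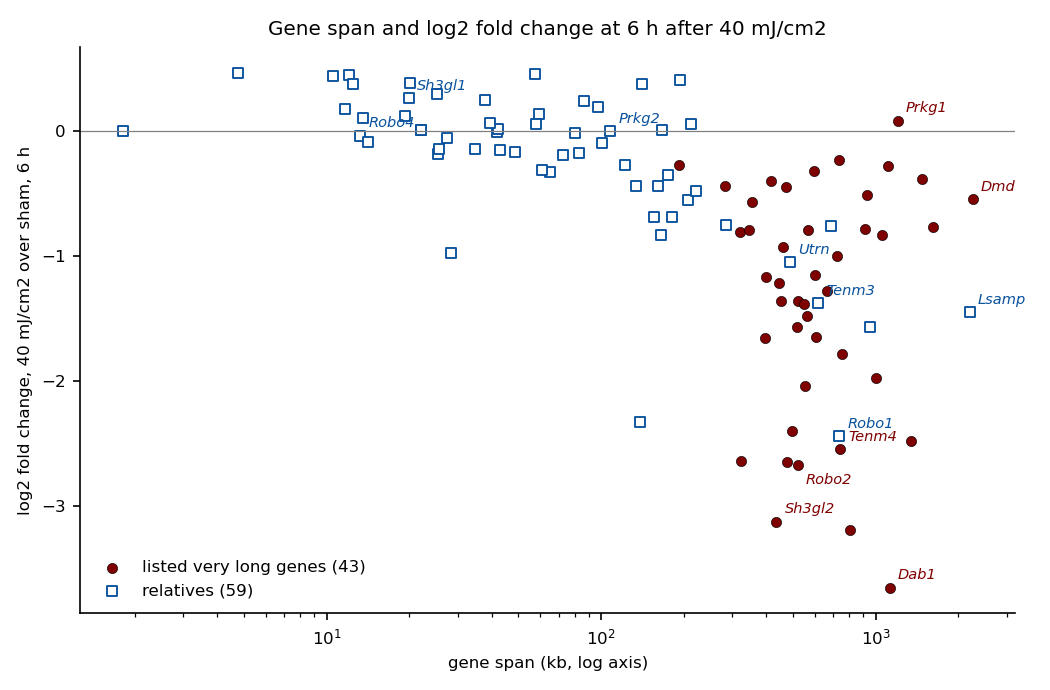
Gene span (horizontal, log scale, kb) against log2 fold change of 40 mJ/cm2 over sham at 6 h for the 43 listed genes and 59 relatives of the same families. The 36 relatives under 100 kb had a median of 0.01 and the 23 longer ones a median of -0.55.

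Genes of transcription-coupled repair, of lesion recognition in chromatin and of elongation by RNA polymerase II were set beside the long genes. Of 49 listed, 49 were tested, and with 40 mJ/cm2 at 6 h 1 was lower and 2 were higher (2.92% and 2.1% of all genes), with a median of 0.23. Ddb2, which recognises lesions in chromatin and not through a stalled polymerase, fell (-0.88 ± 0.21, edgeR adjusted p = 0.0135). Polr2a, the largest subunit of the polymerase, rose (1.43 ± 0.28, adjusted p = 0.00289), as did Hexim1, an inhibitor of the elongation kinase P-TEFb (1.10 ± 0.19, adjusted p = 0.00122). At 24 h 0 were lower and 1 higher (1.3% and 1.62% of all genes), with a median of 0.24, and at 48 h 0 of the 49 were called.

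Over the means of the 30 groups, the listed gene most like the mean of the 43 was Pard3b (Pearson's r 0.940 on log2 CPM), followed by Vps13b, a lipid transfer protein of the Golgi, at 0.938 and Dab1 at 0.924. The least alike were Prkg1 (-0.04), Bnc2 (0.15) and Rora (0.20). Among genes outside the list, the 4 most alike were Eml6 (0.947), Rsrc1 (0.945), Ccser1 (0.932) and Lrba (0.922). All 4 are long genes too, spanning 283, 377, 1203 and 558 kb in that order. The 30 means share their sham animals and libraries, and the mean of the 43 includes the listed genes themselves.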

How the data were processed

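Polyadenylated RNA of mouse dorsal skin was sequenced as stranded single-end libraries (300 ng of RNA, reads of 75 bases, about 40 M reads aimed at), per the labels' protocols. The titles of 5 libraries mark them as repeats, and 2 of these, both at 48 h, carry an RNA amount of their own. The deposited table holds expected counts per Ensembl gene and library, which the authors made from reads processed with bcl2fastq 2.20.422, fastp 0.23.0 and STAR 2.7.10a on GRCm39, with DESeq2 1.36.1 also named, per the submitters' processing notes. The labels do not say which program made the counts, with which annotation, or whether strand was used, so that reads of overlapping or antisense genes may be shared. Of the deposited expected counts, 12.57% were not whole, and all were rounded. The number of sample columns not used was 0.

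Of 55416 identifiers, 52083 had a symbol in GENCODE vM21 (GRCm38), which also gave spans, and those without held 0.0906% of the counts. Because that build differs from the authors', no coordinates are printed but those of RefSeq promoters. Replicates were compared over 280 pairs: the highest correlation was 0.990, and a chi-square of their counts was at least 7.61 times its degrees of freedom, so none was counted as a duplicate. The labels number the animals one by one, and p-values measure the spread between them.

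edgeR 4.0.16 (R 4.3.3, limma 3.58.1) fitted each time with all 5 dose groups and the title ending, with TMM scaling over all libraries and low counts removed by filterByExpr. Slopes used the 5, 10 and 20 mJ/cm2 groups and log2 dose. Log values used a prior count of 2. Genes were called at a Benjamini-Hochberg adjusted p under 0.05 over all 18677 genes tested. The fit was tested on simulated data, where for 40 mJ/cm2 at 48 h it recovered 46% of genes changed by 1 log2 unit and 86% of those changed by 2. Alternatives were DESeq2 1.42.0, RLE scaling, no filter, no title ending, 1 fit of all libraries, a muscle gene term, a mitochondrial share term, no repeats, each ending alone, no library under 1 M counts and each library left out.

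The listed genes and the gene lists were chosen with earlier results of these data known. Values in every library are given for the 8 listed genes with the smallest p of the slope at 6 h and the 3 with the largest, and log2 fold changes for genes called in a tested comparison, the extremes of each role group and, at 40 mJ/cm2 and 6 h, for all 43. Library values of Jarid2 at 0 h, of Fhit and Slc24a3 at later times and the courses over time were added after their values were seen. Some results for genes outside the list are not reported here.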

Additional observations from a re-analysis of the deposited data

Results flagged for a closer look

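In 7 of the 85 groups of values examined, 1 library lay far from the others of its group by Dixon's ratio, where chance gives about 1 in 20. Tenm4 held 72.65 CPM in replicate 4 of the 10 mJ/cm2 group at 6 h, against 13.8 to 27.2 CPM in the other 4 libraries. Thsd4 held 4.595 CPM in replicate 1 of the 40 mJ/cm2 group at 6 h, against 1.32 to 1.79 CPM in the others. Adgrl3 held 1.564 CPM in replicate 5 of the 5 mJ/cm2 group at 6 h, against 3.71 to 4.46 CPM in the others. Magi2 held 3.886 CPM in replicate 1 of sham at 6 h, against 4.54 to 4.72 CPM in the others. Magi2 also held 59.88 CPM and Bnc2 76.21 CPM in replicate 5 of the 10 mJ/cm2 group at 6 h, against 1.95 to 6.33 CPM and 4.14 to 17.9 CPM in the other libraries of that group. That library has 0.18 M counts. The median deviation of the 43 listed genes from the sham mean was 0.01151 on the log2 scale in replicate 3 of the 5 mJ/cm2 group at 24 h, against -0.22 to -0.16 in the others.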

How the results depend on the processing

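No paired analysis was possible because the labels number the animals one by one, and the replicate numbers used here only name them. At 48 h, 40 mJ/cm2 against sham called 11 listed genes and 1423 in all. The counts were 7 and 913 in 1 fit of all libraries, 0 and 18 among R1_001 libraries, and 4 and 657 among R1 libraries. The muscle gene term gave 16 and 3894, and leaving out 1 library gave 6 to 12 and 832 to 1675. DESeq2 called 12 and 1897, RLE scaling 11 and 1368, no filter 8 and 1537 and no title ending 8 and 1431. Settings with the mitochondrial share in the fit, or without libraries titled as repeats, and all settings at 20 mJ/cm2 and 48 h, were chosen after seeing the data. The mitochondrial term gave 7 and 1673. With 20 mJ/cm2 at 48 h, 1 and 98 became 0 and 3 with that term, 0 and 9 without repeats, and 0 to 7 and 6 to 1896 with 1 library left out (7, of which 6 lower, without replicate 1 at 20 mJ/cm2). Sh3gl2 turned to 0.03675 among R1_001 libraries. At 96 h, where 0 listed genes and 22 in all were called, all genes gave 94 with DESeq2, 97 with no filter, 113 in 1 fit of all libraries, 43 with the mitochondrial term, 34 without repeats, 0 among R1 libraries and 1 to 64 with 1 library left out. The listed genes stayed at 0 in every setting run at 96 h; R1_001 libraries alone were too few there.

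The slope at 6 h, with 0 calls, gave 1 listed gene and 8 in all with DESeq2 and 5 in all with no filter. Leaving out 1 library gave 0 and 0. In 1 fit of all libraries, which also holds the sham and 40 mJ/cm2 animals, the slope was taken as the scaled difference of 20 from 5 mJ/cm2. Its 2 and 12 calls are therefore the same test as the 2 and 12 of that difference, given next. The difference of 20 from 5 mJ/cm2 gave 1 and 14 with DESeq2, 1 and 29 with no filter and 2 and 12 in 1 fit of all libraries. All genes gave 2 with no title ending, and 1 each without libraries under 1 M counts, with the muscle gene term and among R1_001 libraries, 4 with the mitochondrial term, and 0 to 2 with 1 library left out. The median of the listed genes at 40 mJ/cm2 and 6 h, -1.165, was -1.305 among R1 libraries and -1.305 to -1.116 with 1 library left out. At 24 h, -0.5386 became -0.7828 with the muscle gene term, -0.4142 among R1_001 libraries, -0.7018 among R1 libraries and -0.6556 to -0.3716 with 1 library left out. The cause of these shifts was not tested.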

Other observations

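At 48 h a gradient by gene span among genes outside the list was there at some doses and not at others. With 20 mJ/cm2 the median log2 fold change was 0.29 under 10 kb and -0.42 over 300 kb, and with 5 mJ/cm2 it was 0.16 and -0.23. With 10 mJ/cm2 it was 0.00 and 0.02, and with 40 mJ/cm2 0.03 and -0.33. Across the 18572 genes, Spearman's rho of the fold with span was -0.35 with 5 mJ/cm2, 0.02 with 10 mJ/cm2, -0.37 with 20 mJ/cm2 and -0.10 with 40 mJ/cm2, and with exonic length it was -0.38, -0.01, -0.41 and -0.04. The mitochondrial share in these groups was 2.76% to 5.39%, 3.85% to 11.2%, 1.86% to 4.30% and 2.14% to 3.63% in that order, against 3.15% to 5.87% in sham, and its part in these correlations was not tested. At 40 mJ/cm2 and 6 h they were -0.37 with span and -0.24 with exonic length. At 0 h, rho with span was -0.24, -0.00, -0.13 and -0.20 at 5, 10, 20 and 40 mJ/cm2. With exonic length it was -0.25, 0.02, -0.11 and -0.14 in that order. These are correlations across genes of the same libraries, and genes are not independent replicates.

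Among the 43 listed genes at 48 h, rho of the fold with span was -0.68, -0.00, -0.61 and -0.46 at 5, 10, 20 and 40 mJ/cm2. In the same order of doses it was -0.23, -0.41, 0.02 and 0.05 at 6 h, and -0.54, -0.23, -0.60 and -0.28 at 24 h. With mean level, rho at 48 h was 0.09, 0.43, 0.17 and 0.54, and with 40 mJ/cm2 at 6 h 0.43. The difference between times or doses was not tested.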
